A study of Mus musculus with 15 samples.

Results

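Interferon response genes are the genes that cells raise when interferon reaches its receptors. They are described here as 68 of the 13657 genes of the deposited expression table, chosen by gene symbol, among them Ifi followed by a digit, Ifit, Ifnar, Oas, Isg, Irf1 to Irf9, Stat2, Mx, Gbp followed by a digit, Usp18, Rsad2, Ddx58, Dhx58, Irgm, Iigp, Igtp, Bst2, Xaf1, Psmb8, Psmb9, Tap1, Tap2, B2m, H2-K1, H2-D1, Rtp4, Trim25, Parp9 and Parp14. The choice was made by name, without a cut on measured values, but earlier results of these data were known when it was made. Of the 68 genes, 58 reached 1 FPKM (fragments scaled by transcript length and sequencing depth) in at least 3 of the 15 libraries and were tested, and 10 did not. Irf2bp1, Irf2bp2 and Isg20l2 match by name only: Irf2bp1 and Irf2bp2 encode proteins that bind the factor IRF2, and Isg20l2 encodes a nucleolar exonuclease known, in human cells, from ribosomal RNA processing. Parts of the pathway present before any signal, such as Ifnar1, Ifnar2 and Irf3, are members too. Counts and medians over the members are therefore not of induced genes alone.

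The cells were cardiac myocytes from neonatal C57BL/6 mice, attached to a silicone (PDMS) membrane that was stretched and then held. The groups were transverse stretch for 30 min, longitudinal stretch for 30 min, transverse stretch for 4 h, longitudinal stretch for 4 h and a non-stretched control, with 3 stretch devices each, called A, B and C, which the design describes as biological replicates. In the stretched groups the primary axis was lengthened by 14% and the other axis by 3.6%. The question, from the series title, is whether stretch along different axes gives different transcripts. The animals that gave the cells, their number and their sex are not given in the sources used here, and the p-values measure the spread between devices.

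An interferon bound to its receptor activates Janus kinases, which phosphorylate STAT proteins. Type I interferon gives a complex of STAT proteins and IRF9, which binds an interferon-stimulated response element (ISRE) in the promoters of antiviral genes, and type II interferon gives STAT dimers, which bind a gamma-activated site (GAS). The induced proteins sense viral RNA, block viral translation and assembly, load peptides on class I molecules, and feed back on the pathway. In the heart the pathway is known from viral myocarditis and from sterile injury, where myocytes, macrophages and other cells can all respond.

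Defining markers of myocytes were abundant in every library, and markers of other cell types were present. The 10 measured cardiac myocyte markers summed to 16990 to 25151 FPKM per library, the 10 fibroblast markers to 2050 to 2742 FPKM, the 14 macrophage and leukocyte markers to 419 to 618 FPKM and the 10 endothelial markers to 25.3 to 54.0 FPKM. Lyz2 alone gave 243 to 387 FPKM of the macrophage and leukocyte sum, so that sum mostly follows this gene. In such bulk samples, a change in the number of cells of a type and a change in RNA per cell cannot be told apart. Relative depth, read from the steps of low values, ran from 0.671 to 1, the absolute depth is unknown, and the correlation of log2 values between libraries ran from 0.943 to 0.988. The interferon genes themselves, searched under 17 symbols, have no row in the deposited table, so their levels could not be analysed here. Log2 differences and fold changes were taken after adding 1 FPKM to each value, except where a value is called so many times another, which is a ratio of FPKM as listed, so log2 differences of weakly expressed genes come out too small.

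Promoter sequences of some members that hold the ISRE core are shown first, since that core is the site of the complex described above. RefSeq promoters (GRCm38.p6, 250 bases before to 50 after the start of the gene, 300 in all) were found for 50 of the 68 genes. The ISRE core was searched as GAAA, any 2 bases and GAAA on both strands (TTTC, any 2 bases and TTTC on the other). It was in 23 of these 50 genes (46.0%), tested or not, and in 3.99% of all 27025 genes with a promoter. Among tested members 19 held it and 25 did not, against 3.42% of the 9538 tested genes with a promoter. The GAS core TTCNNNGAA, which reads the same on either strand, was in 16 of the 50 (32.0%), against 9.55% of the 27025 genes. These 16 were all tested, 28 tested members lacked it, and 8.11% of the tested genes held it. The stretches below run 5′ to 3′ along the gene's strand, with the ISRE matches, merged where they overlap, in capitals. The first 7 were picked, after their values were seen, from members that hold a match and stood high in 1 library, described next; Irf7, Ifi44 and Oasl2 stood high there too and their promoters hold no match.
Isg15 (chr4:156200860-156200911, minus strand): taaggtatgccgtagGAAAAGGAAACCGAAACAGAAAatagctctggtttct
Ifit1 (chr19:34640770-34640828, plus strand): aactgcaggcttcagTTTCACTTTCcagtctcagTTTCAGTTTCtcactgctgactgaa
Ifit3 (chr19:34583358-34583431, plus strand): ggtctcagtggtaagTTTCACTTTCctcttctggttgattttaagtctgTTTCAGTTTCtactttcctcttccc
Gbp3 (chr3:142559984-142560029, plus strand): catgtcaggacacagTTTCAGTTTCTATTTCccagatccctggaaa
Irgm1 (chr11:48871420-48871465, minus strand): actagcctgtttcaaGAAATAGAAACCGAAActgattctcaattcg
Bst2 (chr8:71537572-71537617, minus strand): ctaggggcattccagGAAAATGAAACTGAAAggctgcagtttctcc
Stat2 (chr10:128270261-128270300, plus strand): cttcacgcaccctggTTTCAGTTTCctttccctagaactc
The last pair, Ifitm2 and Irf2, carry a match and were not high in that library.
Ifitm2 (chr7:140955983-140956022, minus strand): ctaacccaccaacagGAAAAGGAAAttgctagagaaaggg
Irf2 (chr8:46739495-46739528, plus strand): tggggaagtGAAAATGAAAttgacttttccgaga
Isg15, Gbp3, Irgm1 and Bst2 hold runs of matches that overlap, and Ifit1 and Ifit3 hold a pair of separate matches. A match is a description of the letters in the window and no measurement of binding.

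The 3 devices of transverse stretch for 4 h differed from each other in most of these genes. Library A of that group had the highest value of all 15 libraries in 45 of the 58 tested genes (77.6%), and it was the highest library in 4.64% of all 12114 tested genes. Its median log2 difference from the control mean was 0.67 over the 58 genes, against 0.01 over all genes, and 57 of the 58 lay above the control mean. Libraries B and C of the same group had medians of -0.18 each, with 12 of 58 genes above the control mean in each. All 10 genes that were too low to be tested were also highest in library A, which makes 55 of the 68.

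**Figure D1:**
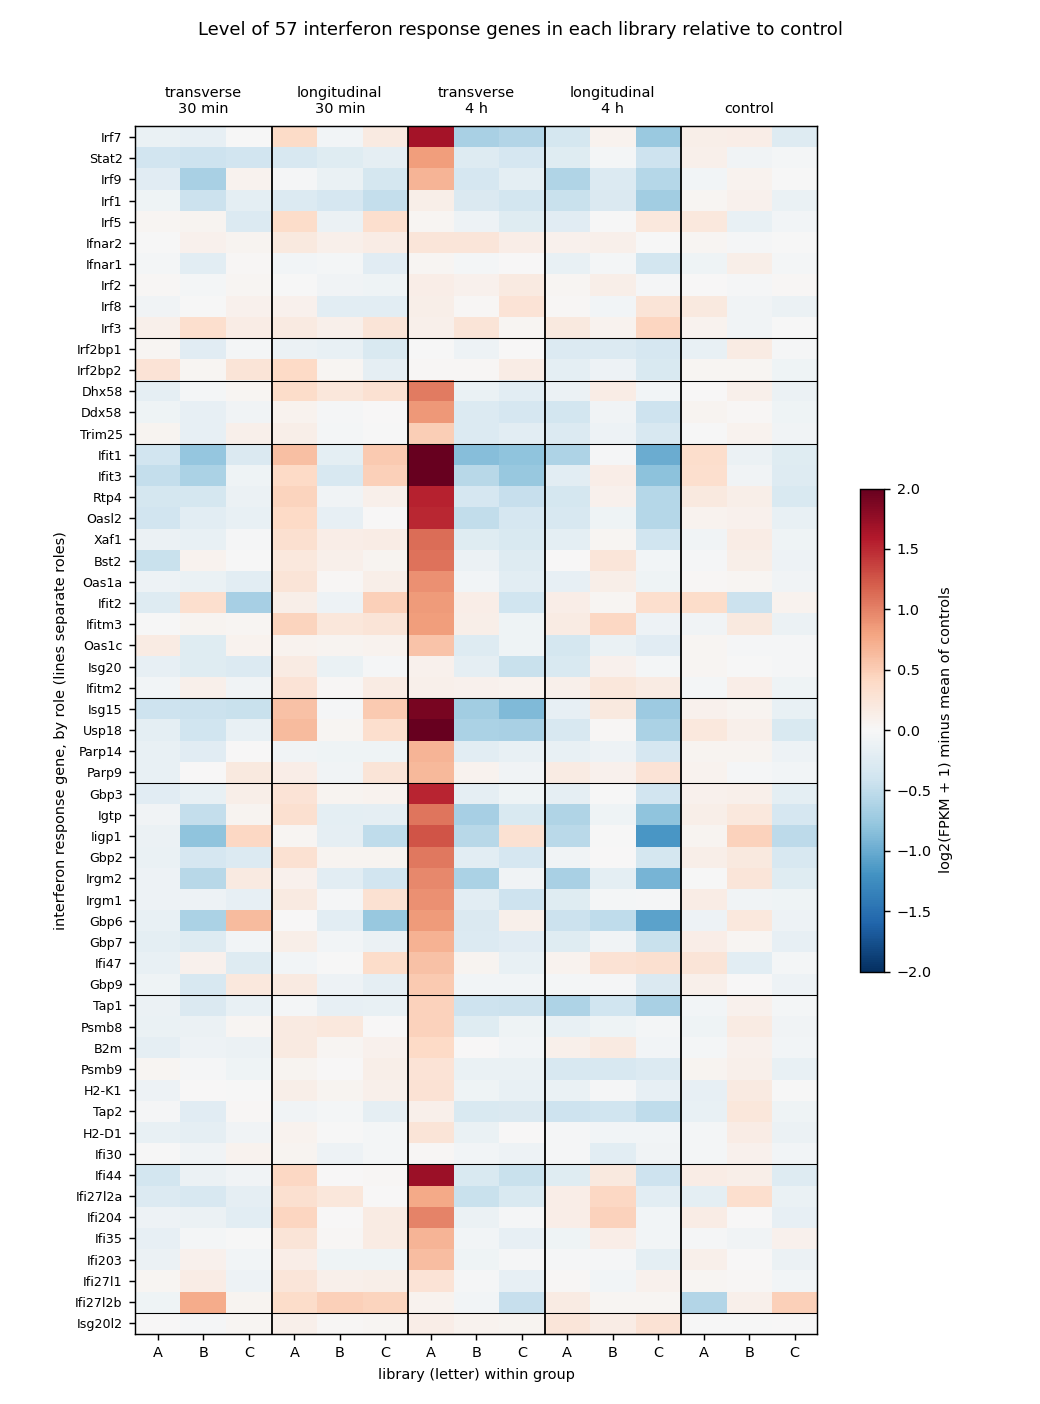
Level of 57 of the 58 tested genes (rows, by role) in each of the 15 libraries (columns, grouped by condition), as log2(FPKM + 1) minus the mean of the 3 control libraries. Red is above and blue below the control mean, and values beyond 2 are drawn as 2; transverse 4 h library A is the reddest column, and is paler in antigen processing, among the receptors and in the IRF2-binding proteins.

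Among the antiviral effectors, the highest ratio of library A to the next library was that of Ifit1. Ifit1, which binds viral RNA that lacks the host cap structure, had 21.3, 1.18 and 1.23 FPKM in transverse 4 h libraries A, B and C, against 4.01, 2.61 and 2.30 FPKM in control libraries A, B and C. Over the 14 libraries other than transverse 4 h A it ran from 0.972 to 4.92 FPKM, so library A was 4.32 times the next highest. Ifit3, a partner of Ifit1, had 23.4, 2.69 and 2.19 FPKM at 4 h of transverse stretch, against 5.83, 4.14 and 3.51 FPKM in control. In both genes library A lay above every control and libraries B and C lay below every control.

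The same split between devices held for the ISG15 system, in which the ubiquitin-like protein ISG15 is attached to other proteins and Usp18 removes it again. Isg15 had 36.2, 5.16 and 4.40 FPKM at 4 h of transverse stretch, against 9.62, 9.35 and 7.97 FPKM in control. Usp18, which also damps signalling at the type I receptor, had 14.1, 1.41 and 1.39 FPKM at 4 h of transverse stretch, against 3.32, 3.0 and 2.04 FPKM in control. For both genes libraries B and C lay below all controls. Parp9 and Parp14, of the ADP-ribosyltransferase family, had 12.8 and 4.13 FPKM in library A and ran from 6.95 to 9.69 and from 1.55 to 2.34 FPKM in the other 14 libraries.

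Among the transcription factors, Irf7, Stat2 and Irf9 stood high in library A, Irf1 lay just above its other libraries, and Irf2, Irf3, Irf5 and Irf8 lay within the range of theirs. Irf7, the factor that amplifies interferon production, had 15.6, 2.37 and 2.51 FPKM at 4 h of transverse stretch, against 4.72, 4.76 and 3.43 FPKM in control. Stat2 and Irf9, parts of the ISRE-binding complex, had 11.2 and 17.4 FPKM in library A and at most 6.34 and 11.2 FPKM in the other 14 libraries. The receptor subunits Ifnar1 and Ifnar2, present before any signal, had 10.6 and 37.0 FPKM in library A, and their other libraries ran from 7.78 to 11.2 and from 30.4 to 36.9 FPKM. Irf3, a factor held ready in the cytoplasm, had 12.8 FPKM in library A within a range of 11.3 to 16.3 FPKM, and Irf2 had 10.9 FPKM within 9.23 to 11.2 FPKM.

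**Figure D2:**
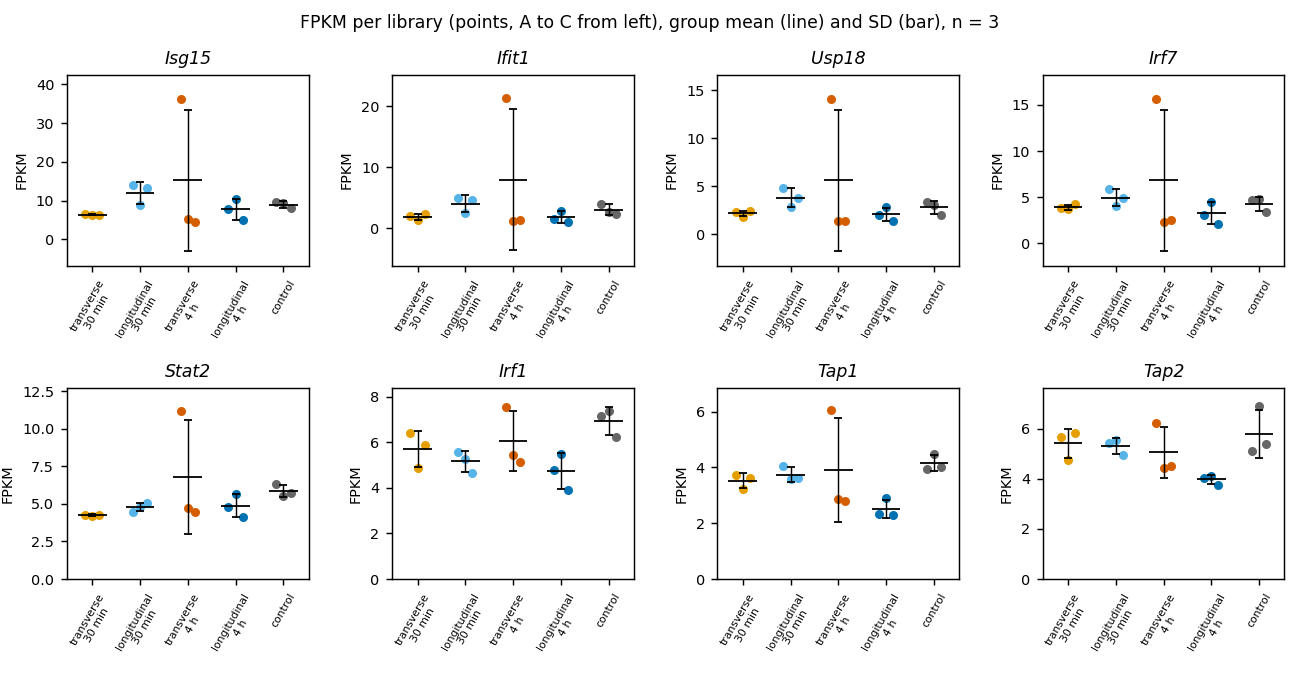
FPKM of 8 genes in each library, by group; points are libraries A, B and C from left to right, horizontal lines group means and bars SD (n = 3). In Isg15, Ifit1, Usp18, Irf7 and Stat2 the high transverse 4 h mean comes from library A alone. Irf1, Tap1 and Tap2 sit below every control in all 3 longitudinal 4 h libraries and in transverse 4 h libraries B and C.

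Sensors and GTPases followed. The RNA sensor gene Ddx58 (RIG-I) had 10.6, 4.27 and 4.04 FPKM at 4 h of transverse stretch, against 5.65, 5.50 and 5.05 FPKM in control, and Dhx58 (LGP2) had 3.17 FPKM in library A against 0.760 to 1.63 FPKM in the other 14. Trim25, a ubiquitin ligase that acts on RIG-I, had 12.7 FPKM in library A against 6.80 to 9.50 FPKM. All 10 tested members of the interferon-inducible GTPases, which attack the vacuoles of intracellular pathogens, were highest in library A. Gbp3 had 5.74, 1.08 and 1.23 FPKM at 4 h of transverse stretch, against 1.50, 1.54 and 1.05 FPKM in control, and Irgm1 had 20.3, 8.81 and 7.47 FPKM at 4 h of transverse stretch, against 11.5, 9.78 and 9.68 FPKM in control.

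By role, library A minus the mean of libraries B and C had a median of 1.76 for the 4 genes of the ISG15 system and PARPs, 1.27 for the 10 GTPases, 1.17 for the 3 genes of RNA sensing, 1.16 for the 12 tested antiviral effectors and 0.79 for the 7 other Ifi genes, on the log2 scale. It was 0.41 for the 8 genes of antigen processing, 0.20 for the 11 receptors, STATs and IRFs, 0.07 for Isg20l2 and -0.01 for the pair of IRF2-binding proteins. Over all 58 genes the median was 0.84, over all tested genes 0.02. The difference passed 1.5-fold in 37 of the 58 genes and in 0.892% of all genes, 108 in number, and 11 of the 58 were within 0.2 of libraries B and C. Of the tested genes with an ISRE core in the promoter, 16 of 19 passed 1.5-fold (median 1.17), against 11 of 25 without one (median 0.41). For the GAS core the medians were 0.71 over 16 genes with it and 0.81 over 28 without. Irf7, Oasl2, Ifi44 and Xaf1, which were among the high genes, had no ISRE match in their window.

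**Figure D3:**
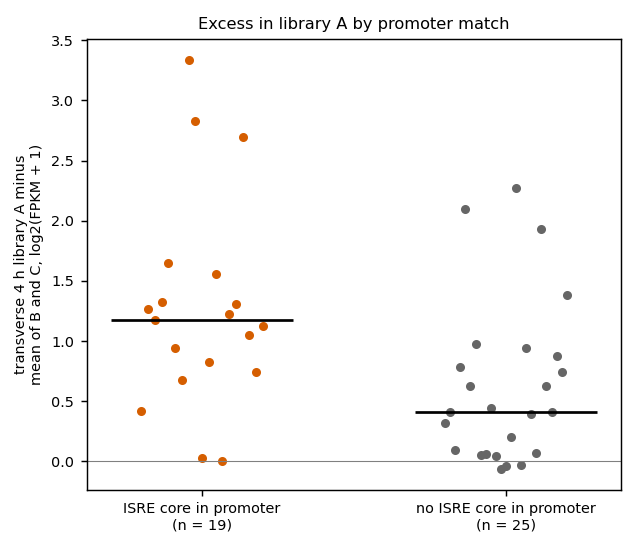
Transverse 4 h library A minus the mean of libraries B and C (log2(FPKM + 1)) for the 44 tested genes with a RefSeq promoter, left with and right without the ISRE core; each point is a gene and the lines are medians, 1.17 and 0.41.

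Over all 12114 tested genes, library A exceeded each of the 14 other libraries by more than 1.5-fold in 36, of which 23 are members and 6 belong to a further list of interferon pathway genes: Ccl5, Cmpk2, Cxcl10, Ifih1, Lgals3bp and Trim30a. Of the other 7, the table's names I830012O16Rik, D14Ertd668e and Mnda are listed as synonyms of Ifit3b, Phf11d and Ifi211, and the remaining genes are Lgals9, Mir215, Mndal and Saa3. None of the 14 other libraries exceeded the rest, library A included, by that much in any of the 58 genes. In the 45 genes where library A was highest, none of them could. Longitudinal 4 h library C exceeded all other libraries by that much in 44 genes outside the 58. The chemokine gene Cxcl10 had 7.11, 0.283 and 0.196 FPKM at 4 h of transverse stretch, against 1.90, 0.542 and 0.439 FPKM in control, and Ccl5 had 4.75 FPKM in library A against 0.599 to 2.01 FPKM in the other 14. Of the 52 tested genes of that further list, 29 were highest in library A and 21 passed 1.5-fold over libraries B and C. Of the tested markers of cell types, 0 of 13 for macrophages and leukocytes, 0 of 9 for endothelium, 0 of 10 for fibroblasts and 0 of 10 for myocytes were highest in library A. Library A was highest in 4.64% of all tested genes, so 0 in lists this short is no result about cell make-up. The macrophage and leukocyte sum was 561 FPKM against 419 to 618 FPKM in the other 14. Most of it was Lyz2, with 343 FPKM in library A and 243 to 387 FPKM in the other 14. The endothelial sum was 34.3 FPKM, against 25.3 to 54.0 FPKM, and the relative depth of library A was 0.860.

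**Figure D4:**
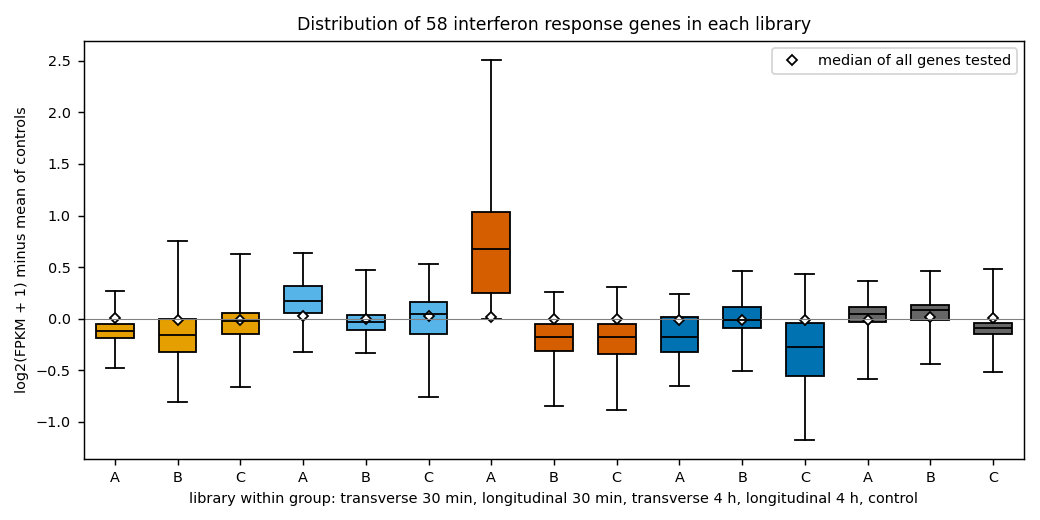
Distribution of the 58 genes in each library as log2(FPKM + 1) minus the control mean; boxes are quartiles with the median as a line, whiskers reach the lowest and highest gene, and diamonds are the median of all 12114 tested genes. The box of transverse 4 h library A (median 0.67) lies above the others, and the diamonds of all libraries lie near 0.

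For transverse stretch of 4 h against control, no interferon response gene passed an adjusted p of 0.05 (0 of 58, limma; 0.0578% of all genes were called), and 2 had an unadjusted p under 0.05, both higher. The fitted fold change was positive in 49 genes and negative in 9, with a median of 0.11 against 0.00 for all genes. Gbp3 had the largest, 0.42 (SE 0.34, adjusted p = 0.703), with 2.68 ± 2.65 FPKM at 4 h of transverse stretch and 1.36 ± 0.271 FPKM in control (SD, n = 3 each). Without library A the direction turned in 41 genes, each time to lower. Then 8 were positive and 50 negative, with a median of -0.17 against 0.00 for all genes. Again 0 of 58 were called (0.0743% of all genes). At an unadjusted p under 0.05, 15 were lower and 2 higher, and the share of all genes at that cut is not given here. Ifit1 had a fitted fold change of 0.29 (SE 0.70) with library A and of -0.83 (SE 0.30, adjusted p = 0.441) without it, and Isg15 of 0.11 (SE 0.56) and -0.79 (SE 0.23, adjusted p = 0.388). Libraries B and C both lay below all 3 controls in 26 of the 58 genes (44.8%), among them Stat2, Irf7, Irf9, Ddx58, Bst2 and Tap1, and in 14.8% of all genes. The authors' deposited table calls Ifit1 (the authors' log2 fold change 1.37, q = 9.68e-05) and Ifit3 (1.03, q = 0.0118) in this comparison. These are 2 of the 68 genes, and 0.256% of all its genes were under q = 0.05. In both genes library A lay above every control and libraries B and C lay below every control.

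**Figure D5:**
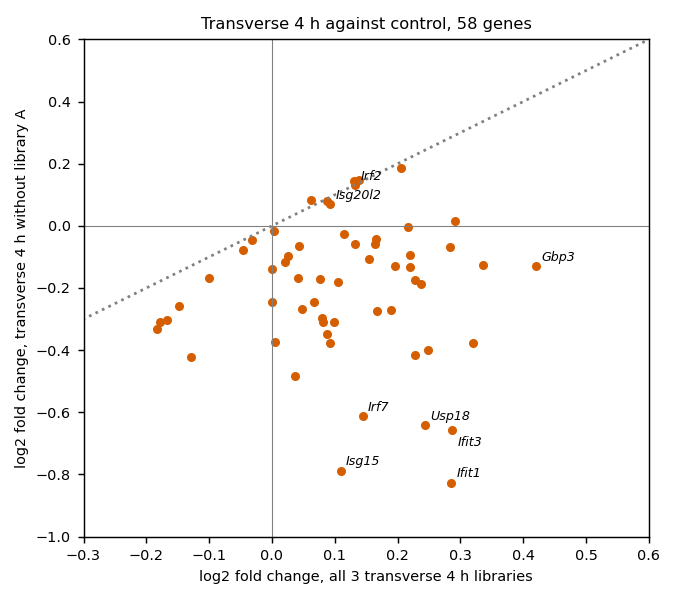
Fitted log2 fold change of the 58 genes for transverse 4 h against control, with all 3 transverse 4 h libraries (x axis) and without library A (y axis); the dotted line marks equal values. Most points lie right of 0 and below 0, and Ifit1, Isg15, Ifit3, Usp18 and Irf7 lie the lowest.

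After 4 h of longitudinal stretch, 4 members were lower than in control, Tap1, Tap2, Irf1 and Irf2bp1, and 1, Isg20l2, was higher. These 5 are 8.62% of the 58 genes, below the 20.7% of all tested genes that were called in the same comparison (10.3% higher and 10.4% lower). All comparisons with control share the same 3 control libraries. Tap1 and Tap2, the pair of subunits of the transporter that carries peptides to class I molecules, both fell. Tap1 had 2.34, 2.90 and 2.29 FPKM in longitudinal 4 h libraries A, B and C, against 3.95, 4.49 and 4.02 FPKM in control libraries A, B and C, a log2 fold change of -0.56 (SE 0.18, limma adjusted p = 0.0472). Tap2 had 4.04, 4.10 and 3.76 FPKM at 4 h of longitudinal stretch, against 5.10, 6.88 and 5.38 FPKM in control, a change of -0.44 (SE 0.12, adjusted p = 0.0240). In both, every longitudinal library lay below every control.

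Irf1, the factor that drives Tap1 and class I genes after interferon, fell by 0.47 (log2, SE 0.14, limma adjusted p = 0.0305), with 4.80, 5.48 and 3.90 FPKM at 4 h of longitudinal stretch, against 7.16, 7.38 and 6.23 FPKM in control. Irf2bp1, a corepressor of IRF2, fell by 0.29 (SE 0.09, adjusted p = 0.0351), with 12.2, 12.1 and 11.6 FPKM at 4 h of longitudinal stretch, against 13.3, 16.8 and 14.7 FPKM in control. Isg20l2 rose by 0.23 (SE 0.05, adjusted p = 0.00990), with 9.82, 9.18 and 10.1 FPKM at 4 h of longitudinal stretch, against 8.14, 8.07 and 8.23 FPKM in control. The groups did not overlap in any of these 3 genes. Tap1, Tap2 and Irf1 also lay below all 3 controls in transverse 4 h libraries B and C.

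Over the 58 genes the fitted fold change was positive in 16 and negative in 42, with a median of -0.15 against -0.01 for all genes. Every longitudinal library lay below every control in 12 genes (20.7%; 21.5% of all genes) and above in 2, Isg20l2 and Parp9 (20.9% of all genes). Psmb9, an immunoproteasome subunit, had 1.08, 1.08 and 1.17 FPKM at 4 h of longitudinal stretch, against 1.71, 1.80 and 1.35 FPKM in control (log2 fold change -0.31, SE 0.10, adjusted p = 0.0529). Gbp6 had the lowest fitted value, -0.67 (SE 0.34, adjusted p = 0.169), with 1.17, 1.07 and 0.398 FPKM at 4 h of longitudinal stretch, against 1.74, 2.38 and 1.73 FPKM in control. The other class I genes did not pass the test: B2m had 409 ± 33.3 FPKM at 4 h of longitudinal stretch and 388 ± 22.0 FPKM in control, and H2-K1 had 68.5 ± 3.51 FPKM at 4 h of longitudinal stretch and 74.1 ± 9.09 FPKM in control (SD, n = 3 each).

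Single libraries bore on these calls. The count of 5 became 1 when either control B or C, or either longitudinal 4 h A or C, was left out, 3 without control A, and 8 without transverse 4 h A, when Ddx58 and Psmb9 were among the further genes called lower (17.3% of all genes were then called). Isg20l2 kept its call in each of the 15 leave-outs. With both transverse 4 h A and longitudinal 4 h C left out, chosen after seeing the data, Isg20l2 lost it and only Tap1 was called. In the single leave-outs Tap1 lost its call in 11 of 15, Irf1 and Irf2bp1 in 5 each and Tap2 in 4. In a fit of the 6 libraries compared alone, Irf2bp1 was not called (adjusted p = 0.0629) and Gbp6 was called lower (adjusted p = 0.0482). Longitudinal 4 h library C was the lowest library in 25 of the 58 genes (43.1%), against 19.6% of all genes. The macrophage and leukocyte sum ran from 548 to 613 FPKM at 4 h of longitudinal stretch and from 419 to 592 FPKM in control, 0 of 13 of these markers were called, and their part in the result was not tested. The authors' deposited table has 6 of the 68 genes under q = 0.05 in this comparison, all lower and among them Gbp6, Gbp10, Irgm2, Rsad2 and Tap1, and 5.82% of all its genes.

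Of the further list of pathway genes, 1 rose and 3 fell among the 52 tested at 4 h of longitudinal stretch, where 10.3% of all genes were called higher and 10.4% lower. Tlr4, the receptor for bacterial lipopolysaccharide, rose by 1.01 (log2, SE 0.24, limma adjusted p = 0.0148), with 18.0, 13.6 and 23.8 FPKM at 4 h of longitudinal stretch, against 11.0, 6.48 and 8.40 FPKM in control. Mavs, the mitochondrial adaptor below RIG-I, fell by 0.32 (adjusted p = 0.0123), Pml, the organiser of PML nuclear bodies, by 0.34 (adjusted p = 0.0399), and Tapbpl, a peptide editor related to tapasin, by 0.43 (adjusted p = 0.0268). In the comparisons of the other 3 stretch groups with control, 0 of these 52 genes were called. Of all genes, 0.314% were called for transverse 30 min, 0.446% for longitudinal 30 min and 0.0578% for transverse 4 h. At such shares, 0 of 52 is no result about the list.

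At 30 min no interferon response gene was called against control for either axis, and the medians of the axes lay on opposite sides of it. For transverse stretch of 30 min, 0 of 58 genes were called (0.314% of all genes; 0 of 58 at an unadjusted p under 0.05), with 11 positive, 47 negative and a median of -0.11. Every transverse library lay below every control in 8 genes (13.8%; 3.52% of all genes): B2m, Ifit1, Irgm1, Isg15, Isg20, Oas1a, Stat2 and Tap1. For longitudinal stretch of 30 min, 0 of 58 were called (0.446% of all genes; 3 at an unadjusted p under 0.05), with 39 positive, 19 negative and a median of 0.10. Every longitudinal library lay above every control in 7 genes (12.1%; 10.6% of all genes) and below in 2, Irf1 and Stat2 (3.45%; 7.12% of all genes).

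Set against each other, most values were higher after longitudinal than after transverse stretch of 30 min, without passing the test. Every longitudinal library lay above every transverse library in 21 of the 58 genes (36.2%), against 5.97% of all genes, and below in 0 (3.32% of all genes). These genes can move together in 1 library, as in transverse 4 h library A. With 3 devices a group, a count of genes is therefore no count of independent observations. Isg15 had 14.0, 8.80 and 13.3 FPKM after longitudinal stretch, against 6.51, 6.39 and 6.30 FPKM after transverse stretch, a log2 difference of 0.79 (SE 0.56, adjusted p = 0.816). Ifit1 had 4.92, 2.43 and 4.63 FPKM after longitudinal stretch, against 1.99, 1.28 and 2.22 FPKM after transverse stretch, a difference of 0.80 (SE 0.70, adjusted p = 0.825). In both genes longitudinal library B lay nearer to the transverse libraries than its fellows did.

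Usp18 differed by 0.59 and Ifit3 by 0.58 in the same direction. The median over the 58 genes was 0.14 against 0.02 for all genes, 46 were higher, and 0 were called (0.0248% of all genes). At an unadjusted p under 0.05 there was 1 gene, and there were 16 without transverse 4 h library A. The share of all genes at that cut is not given here, so these counts are no result about the members. Library A widens the spread shared by all groups: the SE of Isg15 was 0.21 without it. Adjusted over all genes, the lowest p of a member was then 0.849, with 0 of 58 called and 0.0413% of all genes. The control mean lay between the axes, with longitudinal highest, in 29 of the 58 genes. The share of all genes with that order is not given here, so whether 29 is unusual is not known. The macrophage and leukocyte sum was 439 to 546 FPKM after longitudinal and 440 to 488 FPKM after transverse stretch, and its part in the difference was not tested.

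At 4 h the order of the axes depended on library A. With it, longitudinal stretch was lower than transverse stretch in 50 of 58 genes, with a median difference of -0.25, and without it higher in 35 of 58, with a median of 0.08. No gene was called either way (0 of 58; 0.0165% of all genes with library A and 0.0248% without), and at an unadjusted p under 0.05 there were 9 with it and 4 without. For 4 h against 30 min of transverse stretch, 0 of 58 were called (0.338% of all genes; 3 at an unadjusted p under 0.05), and the median was 0.22 with library A and -0.08 without it, when again 0 were called (0.206% of all genes).

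Within the longitudinal axis most values were lower at the later time, without passing the test. At 4 h against 30 min of longitudinal stretch 49 of 58 genes were lower, with a median of -0.21 against -0.02 for all genes, and every 4 h library lay below every 30 min library in 18 genes (31.0%; 17.7% of all genes). None was called (0 of 58; 4.98% of all genes; 5 at an unadjusted p under 0.05, lowest adjusted p = 0.0560, Isg20l2, which was higher). Without transverse 4 h library A, Tap1 and Psmb9 were called lower (3.67% of all genes). Tap1 then differed by -0.44 (SE 0.08, adjusted p = 0.0215), with 2.34, 2.90 and 2.29 FPKM at 4 h, against 4.04, 3.57 and 3.63 FPKM at 30 min. Psmb9 differed by -0.37 (SE 0.07, adjusted p = 0.0259), with 1.08, 1.08 and 1.17 FPKM at 4 h, against 1.71, 1.64 and 1.84 FPKM at 30 min. Neither gene's groups overlapped.

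The 6 members with the highest mean belong to class I presentation and the antiviral effectors. B2m, the light chain of class I molecules, averaged 398 FPKM over all libraries, Ifitm2 and Ifitm3, membrane proteins that hinder viral entry, 169 and 124 FPKM, H2-K1 and H2-D1, class I heavy chains, 73.7 and 55.7 FPKM, and Bst2, which holds budding virus at the membrane, 46.8 FPKM. Ifitm2 had 172, 170 and 168 FPKM at 4 h of transverse stretch, against 155, 175 and 150 FPKM in control, while its paralog Ifitm3 had 196, 118 and 103 FPKM at 4 h of transverse stretch, against 104, 125 and 100 FPKM in control. Library A stood high in Ifitm3 and not in Ifitm2.

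The 10 untested genes, Gbp10, Ifi205, Ifitm1, Mx2, Oas1b, Oas1g, Oas2, Oas3, Oasl1 and Rsad2, reached 1 FPKM in 0 to 2 libraries. Rsad2, which encodes the antiviral enzyme viperin, had 3.76, 0.206 and 0.301 FPKM at 4 h of transverse stretch, against 1.63, 0.450 and 0.385 FPKM in control. Mx2, of the Mx family of GTPases, had 1.95, 0.181 and 0.203 FPKM at 4 h of transverse stretch, against 0.534, 0.371 and 0.392 FPKM in control. Values of near-identical relatives in the Ifit, Ifitm, Oas, Gbp, Irgm and Ifi200 families are uncertain, since shared reads may be divided among them. The table's entries of B2m, H2-D1 and Ifi47 span 12.2, 14.1 and 4.79 times the RefSeq gene, and their values may include reads of neighbouring genes. In the table's mm9 coordinates, Isg15 lies at chromosome 4, 155573533 to 155574927, Ifit1 at chromosome 19, 34715379 to 34724499, Irf1 at chromosome 11, 53583516 to 53591876, Tap1 at chromosome 17, 34324501 to 34334170, and Tap2 at chromosome 17, 34341424 to 34353266.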

How the data were processed

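Poly(A) RNA of 15 cultures was sequenced (TruSeq RNA v2, which does not mark strand, per the labels' protocols). The authors deposited 1 table with a value per gene and library. Its headers name no unit, and the values were read as FPKM as deposited by the authors, because they are not whole, scale as FPKM do, and Cufflinks is named. The tools are, per the submitters' processing notes, FastQC, TopHat 1.4.1 and Cufflinks 2.0.2, with build mm9; their roles are not stated. Per the file headers, the authors' table also holds log2 fold changes with p-values and q-values of each stretch condition relative to control, by a test not named there. FPKM keep no read counts, so no counting interval is given. The number of columns of no sample was 0. Starts in the table count from 0 (end minus start equalled the gene's span in 3165 of 12208 genes compared, and that plus 1 in 303), so 1 was added.

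Groups follow the sample titles. Tests were made in limma 3.58.1 (R 4.3.3), with its trend and robust settings, from log2(FPKM + 1) of the 12114 genes with at least 1 FPKM in at least 3 libraries. All 15 libraries entered 1 fit of 5 group means with 10 residual degrees of freedom. There were 8 comparisons: 4 stretch groups with control, the axes with each other at either time, and the times with each other on either axis. Two-sided p-values were adjusted over all genes of a comparison (Benjamini-Hochberg) and called under 0.05. Counts at an unadjusted p under 0.05 are printed without the share of all genes at that cut, and are no result about the members. Motifs were searched in RefSeq promoters with Python 3.11.15. Alternatives were a pseudocount of 0.1, no filter, only the groups compared, a replicate block, median centring, limma without its options and each library left out. The fit was tested on simulated data.

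Members, gene lists and tests were chosen with earlier results of these data known. Members named with values are those called, the 3 of smallest p and 2 of highest mean in a role, and the 3 of largest change per comparison with control; not each is printed, and others were named after their values were seen, among them those high in transverse 4 h library A. 1 member that enters the fits and the counts is not reported here by name.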

Additional observations from a re-analysis of the deposited data

How the results depend on the processing

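Of the 8 counts of called genes, 6 stayed at 0 of 58 under every alternative run. For longitudinal 4 h against control the count was 5; it was 6 with a pseudocount of 0.1, 6 in a fit of these 6 libraries alone (Irf2bp1 lost, Gbp6 among those gained), 3 with a replicate block and 1 to 8 over the leave-outs (1 when either control B or C, or either longitudinal 4 h A or C, was left out, 3 without control A, 8 without transverse 4 h A). Chosen after seeing the data, leaving out both transverse 4 h A and longitudinal 4 h C gave 1, Tap1, and the call of Isg20l2 was lost. For longitudinal 4 h against longitudinal 30 min the count was 0; it was 1 with a pseudocount of 0.1 (Psmb9), 1 with median centring (Isg20l2) and 0 to 2 over the leave-outs. Direction was reversed for Gbp3, Ifi44 and Iigp1 at 4 h of transverse stretch against control, whose log2 fold changes of 0.42, 0.32 and 0.34 became -0.13, -0.38 and -0.13 without transverse 4 h A, alone or with longitudinal 4 h C (leave-outs -0.13 to 0.72, -0.38 to 0.71 and -0.13 to 0.78). The cause was not tested. The replicate letters were not used to pair the samples: deviations from the group mean correlated at -0.50 to 0.51 between libraries of the same letter, over 0.1 in 9 of 30 pairs, and at -0.48 to 0.58 between libraries of different letters; with the replicate block the calls of Irf2bp1 and Tap1 were lost. With 3 libraries a group, unknown absolute depth and a spread that 1 library widens, a member that was not called is not shown to be unchanged.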
